A study of Mus musculus with 4 samples.

Results

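Macrophages that carry Vsig4, Marco or Timd4 were described in stromal vascular cells of gonadal white adipose tissue (gWAT). The tissue came from 18-month-old p16-CreERT2/R26-LSL-tdTomato mice, in which the promoter of p16 (Cdkn2a) drives a tamoxifen-inducible Cre and the Cre switches on tdTomato for good. All 4 groups shared this genotype, this age and the tamoxifen treatment. They differed in the flow cytometry sort that names them, CD45 by antibody and tdTomato by fluorescence, with 1 single-cell library per group. In the order used throughout, the groups were CD45- with tdTomato (CD45- Tom+), CD45- without it (CD45- Tom-), and the same pair of sorts from CD45+ cells (CD45+ Tom+, then CD45+ Tom-). Tom+ marks cells in which the p16 promoter was active enough during dosing to recombine the reporter, so a Tom+ cell need not hold Cdkn2a RNA when it was collected. Members were chosen by their own counts. Each had at least 3 unique molecular identifiers (UMIs) of Vsig4, Marco and Timd4 together, at least 3 of C1qa and at least 1 of Ptprc (the gene of CD45). Each also had at most 4 UMIs of Gpnmb, none of Car6, at most 1 of Pdgfra and under 10 of Mzb1. This left 171 of 14982 kept barcodes, which were 81, 17, 51 and 22 in the 4 libraries.

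Vsig4 is a complement receptor of the immunoglobulin superfamily that binds C3b and helps tissue macrophages take up opsonised particles. Marco is a scavenger receptor with a collagen-like domain that binds bacteria and particles. Timd4 (TIM-4) binds phosphatidylserine and tethers apoptotic cells. All of them are known from macrophages that settle in tissues for long periods, such as the Kupffer cells of the liver and the large macrophages of the peritoneal cavity. In adipose tissue the vessel-associated macrophages with Lyve1, and in many cells Timd4, are the known counterpart, and they stand apart from the lipid-associated macrophages that collect around dying adipocytes.

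The promoter windows of the genes used for selection are shown because they mark which genes defined the cells. Each runs from 250 bases before to 50 bases after the annotated start in RefSeq (GRCm38.p6). The Vsig4 window is chrX:96293389-96293688 on the minus strand, the Marco window chr1:120504975-120505274 on the minus strand and the Timd4 window chr11:46810549-46810848 on the plus strand. Capitals mark matches on either strand to GAGGAA, a core of the site of the myeloid factor PU.1, or to TGCTGA, a core of the site of MAF factors. Of 32851 promoter windows of this length, 28.3% held the first and 19.5% the second.
Vsig4: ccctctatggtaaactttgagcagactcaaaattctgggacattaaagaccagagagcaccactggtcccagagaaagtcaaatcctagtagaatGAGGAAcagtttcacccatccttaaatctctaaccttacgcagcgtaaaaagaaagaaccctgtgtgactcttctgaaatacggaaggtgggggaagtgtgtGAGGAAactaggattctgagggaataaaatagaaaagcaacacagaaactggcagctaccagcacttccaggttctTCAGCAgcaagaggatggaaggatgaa
Marco: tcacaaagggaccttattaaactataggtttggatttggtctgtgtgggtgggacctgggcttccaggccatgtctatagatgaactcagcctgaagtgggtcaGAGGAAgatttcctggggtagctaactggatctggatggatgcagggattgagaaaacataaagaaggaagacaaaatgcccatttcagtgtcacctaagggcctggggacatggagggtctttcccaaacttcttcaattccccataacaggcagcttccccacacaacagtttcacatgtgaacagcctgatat
Timd4: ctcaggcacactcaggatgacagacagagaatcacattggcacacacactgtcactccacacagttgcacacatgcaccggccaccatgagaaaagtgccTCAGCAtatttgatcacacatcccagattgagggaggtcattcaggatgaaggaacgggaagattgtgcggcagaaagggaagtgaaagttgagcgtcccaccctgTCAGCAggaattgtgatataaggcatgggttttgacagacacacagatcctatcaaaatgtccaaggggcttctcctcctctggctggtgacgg
The first motif occurred 2 times in the Vsig4 window and 1 time in the Marco window, and 0 times in the Timd4 window. The second occurred 1 time, 0 times and 2 times. A match describes letters in the window and no binding was measured.

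The spread of the rule's genes over the cells is a description, since each member had to carry 3 UMIs of them. A Vsig4 UMI was found in 158 of the 171 cells (92.4%), a Timd4 UMI in 67 (39.2%) and a Marco UMI in 44 (25.7%). Vsig4 alone of these genes was found in 86 cells (50.3%) and all 3 genes in 22 (12.9%). Most members were thus selected on Vsig4, since 154 of them reached 3 UMIs through Vsig4 by itself. Of the marker genes given for the cells that the rule did not use, Fcna (ficolin A, a lectin of the complement pathway) was found in 142 cells (83.0%) and Cd163 (the scavenger receptor for haemoglobin bound to haptoglobin) in 50 (29.2%). In adipose progenitor barcodes of the same libraries, which should lack these genes, a Vsig4 UMI was found in 1.67% to 4.57% of up to 300 barcodes per library, at a median of 24017.5 to 29368.5 UMIs per barcode against 12167 to 17230 in the macrophages. When every cell was thinned to 2000 UMIs, Vsig4 was found in 79.0%, 82.4%, 88.2% and 77.3% of members and in 0 to 0.913% of progenitors, where the rule fixes that the first shares are high. No member fell below this depth.

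Vsig4 stood at 2031, 1952, 1784 and 1642 CPM (a gene's UMIs scaled to a common total, after summing over the members of a library). These levels were close to each other in all 4 libraries, but most members were selected on Vsig4, so no likeness of the libraries is read from them. Marco stood at 1302, 608, 1079 and 1063 CPM, and here a single cell carried 27.7%, 41.0%, 24.9% and 60.7% of the library's Marco UMIs. Its level was therefore set by few cells, and the median cell of every library held 0 Marco UMIs. Timd4 stood at 112, 40.3, 142 and 50.7 CPM. Its UMIs counted towards selection, so no difference between libraries is read from it. Cd163 stood at 106, 114, 100.1 and 23.9 CPM, and 1 cell held 87.1% of its UMIs in the library labelled CD45- Tom-.

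Genes shared by all macrophages were present. Csf1r, the receptor for the growth factor CSF1, stood at 615, 601, 590.0 and 710.4 CPM, and Adgre1 (F4/80) at 499.9, 520.0, 359 and 409 CPM. Of the genes that define the Kupffer cell and the large peritoneal macrophage, some were at or near 0 and others were not. Clec4f, the Kupffer cell lectin, had 0 UMIs in all 4 libraries. Gata6, the transcription factor of large peritoneal macrophages, had 14, 5, 3 and 2 UMIs, and Icam2 had 8, 3, 2 and 2. The list of 8 Kupffer cell genes outside the rule summed to 457, 304, 400.2 and 287 CPM, with 1, 3, 1 and 4 of them at 0. Over all kept barcodes it summed to 333.9, 812.1, 327.5 and 813.1 CPM, above the members in both Tom- libraries. The list of 14 large peritoneal macrophage genes summed to 2779, 2384, 2741 and 3489 CPM, with 1, 2, 1 and 1 at 0. Over all kept barcodes it summed to 1275, 2099, 1148 and 2218 CPM. Only 3 of these 14 genes averaged 50 CPM or more in each pair of libraries. No cell identity is therefore read from these sums. A long residence in the tissue was not measured. The cells are therefore called Vsig4 macrophages here.

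Cells just inside and just outside the threshold differed in more than the genes of the rule. There were 12 cells with 2 UMIs of Vsig4, Marco and Timd4 together, 6 with 3, 5 with 4 and 134 with 10 or more. H2-Aa, a chain of the class II antigen-presenting complex, stood at 1881 CPM in the cells with 2 UMIs and 3092 CPM in those with 3, 4965 CPM in those with 4 and 496 CPM in those with 10 or more. The H2-Aa level at 3 UMIs rested largely on 1 cell with 171 UMIs of the gene. Arg1 (arginase 1, which splits arginine) stood at 804, 1432, 153 and 3420.0 CPM in the same cells, with no steady order. Fcna stood at 673, 260, 0 and 640 CPM and Lyve1, a hyaluronan receptor, at 423, 130, 0 and 676 CPM. Both were thus higher in the cells just outside the threshold than in those with 3 or 4 UMIs.

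Vsig4 macrophages made up a larger share of both Tom+ libraries. All intervals given here and later cover counting error only. The share of kept barcodes was 1.95% (exact binomial 95% interval 1.56 to 2.42), 0.421% (0.245 to 0.673), 2.57% (1.92 to 3.37) and 0.457% (0.286 to 0.691). The same order held within macrophages. Of all barcodes that met the C1qa, Ptprc, Pdgfra and Mzb1 limits and fell in the compared kinds, they were 9.90% (7.94 to 12.2) of 818, 3.43% (2.01 to 5.43) of 496, 12.8% (9.64 to 16.4) of 400 and 3.32% (2.09 to 4.98) of 663. Intervals of the Tom+ libraries did not overlap those of the Tom- libraries. With 1 library per group there was no replicate to test this against, and the share of a library also depends on what else the sort let in. All 4 libraries came from sorts with a CD45 gate, yet members chosen to hold Ptprc RNA were found in the libraries labelled CD45- at shares whose intervals overlapped those of the libraries labelled CD45+ with the same tdTomato sort.

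**Figure D1:**
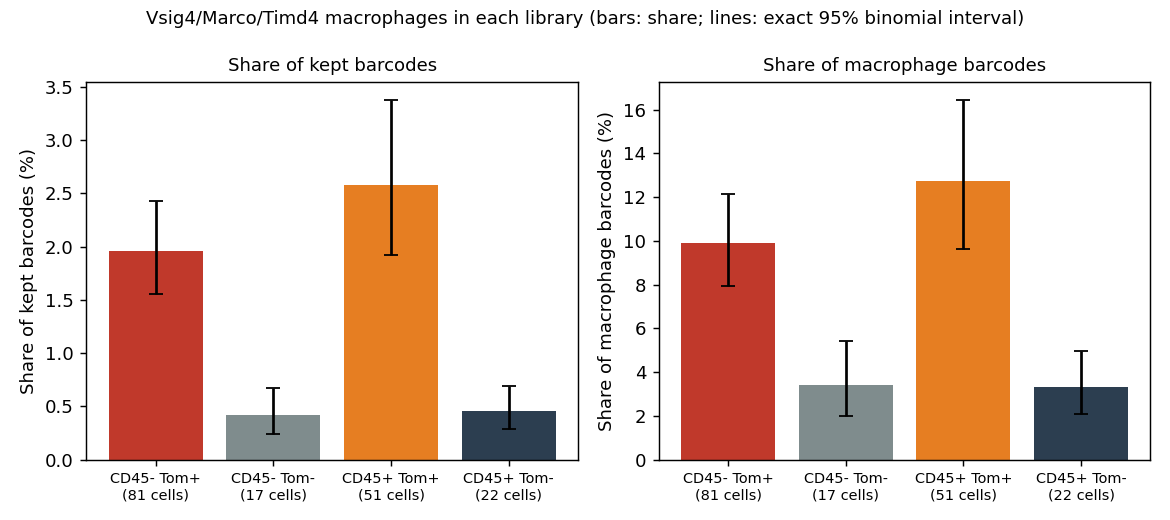
Bars give the share of kept barcodes (left, %) and of macrophage barcodes (right, %) that were Vsig4 macrophages in each library, and lines give exact 95% binomial intervals. The Tom+ libraries stand at 1.95% and 2.57% of kept barcodes, the Tom- libraries at 0.421% and 0.457%.

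Across the libraries, total UMIs ranged from 64083756 to 139397501. Members had a median of 17230, 14118, 12167 and 16911.5 UMIs and together held 1410366, 273073, 779595 and 335014. The median mitochondrial share of their UMIs was 4.82%, 5.69%, 4.01% and 5.22%, beside 3.23% to 3.35% over all kept barcodes. With fewer members in the Tom- libraries, 3 UMIs over all members were worth 10.99 and 8.96 CPM. Libraries shared up to 4394 barcodes, but none of the members' barcodes was kept in another library. Under these conditions 1 cell could set a gene's level, so that share is given where it mattered.

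RNA of other cell types was also present. Plasma cell markers summed to 32044, 2098, 30707 and 1845 CPM in the members and to 257201.5, 14584, 261336 and 19456 CPM over all kept barcodes. All 8 genes of that list outside the rule had UMIs in the members except 2 in the library labelled CD45+ Tom+. Mast cell markers summed to 687, 43.9, 1293 and 5.97 CPM, with 53.6% and 50.0% of the Tom+ sums in 1 cell each and Cma1, Cpa3 and Tpsb2 at 0 in the library labelled CD45+ Tom-. Adipose progenitor markers summed to 229, 388, 254 and 1427 CPM, with 69.7% in 1 cell of the library labelled CD45+ Tom-. B cell markers summed to 68.8, 385, 42.3 and 8.96 CPM, with 78.1% in 1 cell of the library labelled CD45- Tom-. In all, 26 members (10, 3, 8 and 5) held 10 or more UMIs of at least 1 marker list of another lineage.

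Vsig4 macrophages were next set beside the other macrophages of the same library. These met the same C1qa, Ptprc, Pdgfra and Mzb1 limits. Of them, 894 had at least 5 Gpnmb UMIs, 403 had fewer Gpnmb UMIs but a Car6 UMI, and 909 had neither and no UMI of Vsig4, Marco or Timd4. The rule chose the cells on their own counts, so this is a description with no test. Of 2722 genes that averaged 50 CPM or more over the members and the other macrophages of every library, 27 (0.992%) were at least 2-fold higher in the members in all 4 libraries and 10 (0.367%) at least 2-fold lower. Among the perivascular macrophage genes, 5 of the 11 that reached this level were higher by that measure (Lyve1, F13a1, Gas6, Cbr2 and Fcna) and none lower. Of the 11 lipid-associated macrophage genes none was higher and 4 lower (Gpnmb, which the rule used, and Lgals3, Mmp12 and Atp6v0d2). The pooled other macrophages include those taken for their Gpnmb. Levels by kind are given below for several of the lower and some of the higher genes.

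Lyve1, a hyaluronan receptor of perivascular macrophages, stood at 596, 219.7, 782 and 534 CPM in the members and at 113, 53.3, 112 and 34.9 CPM in the other macrophages. Every member level exceeded every other level. The log2 difference within a library was 2.40, 2.04, 2.80 and 3.94. Fcna stood at 496, 187, 1066 and 418 CPM against 103, 39.0, 61.7 and 26.4, a log2 difference of 2.27, 2.26, 4.11 and 3.98. Cbr2 (carbonyl reductase 2) gave 2.31, 2.99, 3.01 and 3.24 and F13a1 (the A chain of coagulation factor XIII) 1.84, 1.12, 2.39 and 2.26. Gas6, which bridges phosphatidylserine to the receptors Axl and Mertk, gave 1.24, 1.55, 1.19 and 2.08. Folr2, a folate receptor, gave 0.92, 1.81, 1.08 and 1.17, and Mrc1 (the mannose receptor CD206) 0.48, 0.73, 0.41 and 0.74. Set beside the remaining macrophages alone, which had neither Gpnmb at 5 UMIs nor Car6, Lyve1 was still higher in every library, since those stood at 274, 117, 169.6 and 70.2 CPM. F13a1 stood at 661, 201, 779.9 and 502 CPM in the members and at 441, 203, 395 and 251 CPM in the remaining macrophages, about level in the library labelled CD45- Tom-.

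Genes of complement, iron handling and secreted proteins came next. C4b, the complement component cleaved by the C1 and lectin pathways, stood at 547, 476, 845 and 519 CPM in the members against 99.7, 62.3, 80.6 and 55.0, with log2 differences from 2.46 to 3.39. C1qb, part of the same complex as the rule gene C1qa, was slightly lower in the members at -0.44, -0.16, -0.43 and -0.24. Among iron genes Tfrc (the transferrin receptor) gave 1.77, 1.36, 1.97 and 1.56 and Cp (ceruloplasmin, a copper ferroxidase) 2.03, 2.10, 1.95 and 2.35. Retnla, a secreted protein of alternatively activated macrophages, gave 2.53, 1.71, 1.73 and 4.08. Single cells held 30.1%, 50.0%, 45.4% and 42.4% of the members' Retnla UMIs. Retnla stood at 660.1, 139, 444 and 2131 CPM in the members and at 245.8, 80.15, 313.5 and 250.3 CPM in the remaining macrophages. Pros1, a second bridging protein for phosphatidylserine, gave 1.37, 1.46, 1.34 and 1.20.

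Further genes named for the highest ratios to the pooled other macrophages were Cxcl13, Fxyd2, Pmepa1, Lrg1, Cd38, Hgsnat and Wfdc17. Some were also high in the macrophages with Car6. Pmepa1 stood there at 198, 222, 265 and 199 CPM, against 338, 267, 222 and 245 CPM in the members. Lrg1 stood there at 70.7, 66.4, 105 and 77.6 CPM, against 97.9, 76.9, 101 and 108 CPM. Cxcl13, the B cell chemokine, stood at 157, 102, 177 and 281 CPM against 6.48 to 11.3 in the other macrophages, but all of its UMIs in the library labelled CD45- Tom- and 95.7% of those in the library labelled CD45+ Tom- lay in 1 cell. Cd38, an ectoenzyme that consumes NAD, stood at 208, 231, 209 and 259.7 CPM against 55.2 to 68.3. The macrophages with Car6 stood at 168.5, 115.6, 103.8 and 112.7 CPM of Cd38. Wfdc17, a small secreted protein of activated macrophages, stood at 1953, 1743, 2748 and 1340.0 CPM against 440.3 to 794. Ctsk, Cd300c2, Atp6v0d2, Tmsb10, Ndufa13, Lgals3, Lst1, Mmp12, Aprt and Clec4a2 had the lowest ratios. Lgals3 (galectin 3) stood at 1074, 1241, 811 and 743 CPM in the members against 3692, 2621, 3260.0 and 2753. The macrophages with Gpnmb stood at 5096, 4769, 4621 and 4473 CPM of Lgals3 and the remaining ones at 1762, 1378, 1274 and 1276 CPM, under 2-fold above the members. Ctsk (cathepsin K) stood at 40.4, 0, 21.8 and 23.9 CPM against 222, 160.1, 269.6 and 139.5. Its level in the remaining macrophages was 20.01, 31.7, 15.5 and 24.5 CPM and in those with Gpnmb 353.5, 353, 433 and 255 CPM. Atp6v0d2, a subunit of the lysosomal proton pump, stood at 89.3, 65.9, 139.8 and 38.8 CPM against 323, 219, 338 and 225. The remaining macrophages stood at 111, 68.8, 140.3 and 65.3 CPM and those with Car6 at 45.7, 32.0, 34.2 and 31.7 CPM. For Mmp12 the remaining macrophages stood at 264, 58.8, 177 and 74.4 CPM, below the members in both Tom+ libraries. The lower level of Ctsk and Atp6v0d2 was therefore a difference from the macrophages with Gpnmb.

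**Figure D2:**
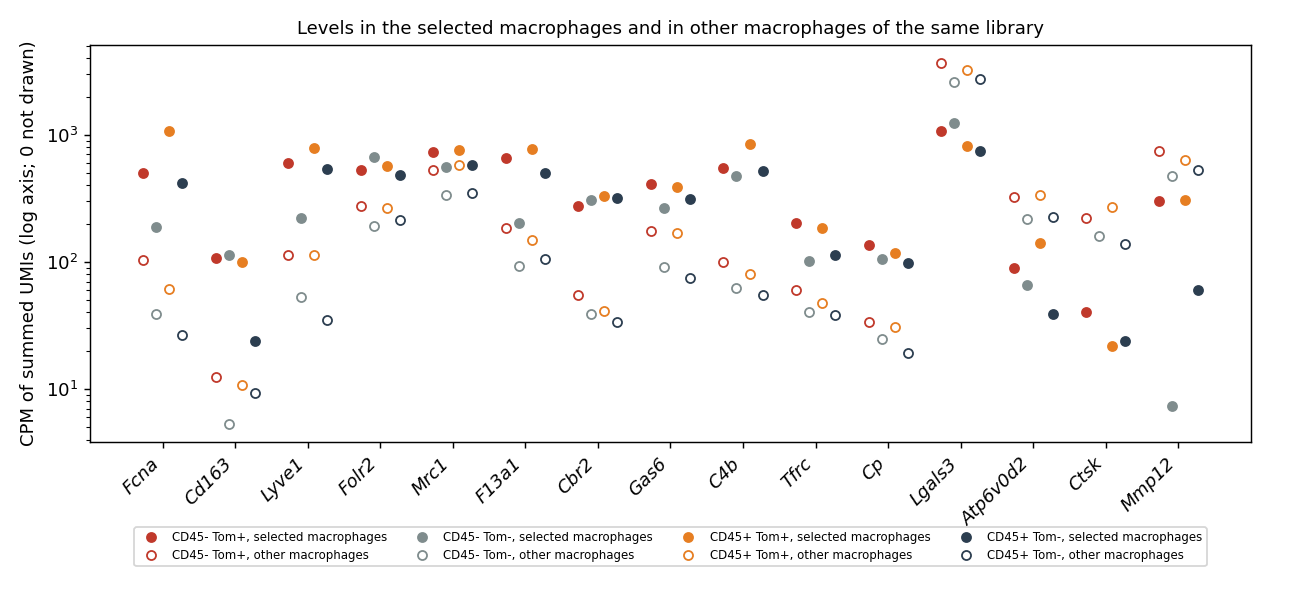
Levels in CPM of summed UMIs (log axis, a gene listed at 0 is not drawn) for 15 genes. Filled points are Vsig4 macrophages and open points are the other macrophages of the same library. The filled points of Lyve1, Cbr2 and C4b lie above all open points of the gene and those of Lgals3 and Ctsk lie below.

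The members were not uniform. Fn1 (fibronectin, a matrix glycoprotein) ran from 0 or 1 UMI to between 319 and 399 UMIs in a cell of each library, with medians of 46, 49, 30 and 106.5. Its level was split, with 121 cells at 10 or more Fn1 UMIs per 10000 and 50 cells under this value, which was chosen after the cells were seen. Only 9 cells lay between 5 and 20. High Fn1 was not particular to the members. The macrophages with Car6 stood at 11646, 13671, 9802 and 14073 CPM of Fn1, against 4925, 5911, 3303 and 8838 CPM over all members. Cells with high Fn1 also had high Arg1, at 4440.0 CPM against 366 CPM in the cells with low Fn1. Slc7a2, a transporter of arginine, stood at 578 against 107 CPM. Saa3, an acute-phase apolipoprotein, stood at 1624 against 128 CPM. Marco stood at 1651 against 234 CPM and Vsig4 at 2463 against 914 CPM, but UMIs of both genes counted towards selection. In the library labelled CD45- Tom- Marco was about level, at 619 against 592 CPM.

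Genes on the other side of this split were those of endocytic lectins and antigen presentation. In the cells with low Fn1, Mrc1 stood at 1285 CPM against 384 CPM and Clec10a (a galactose lectin) at 429 against 67.4 CPM. H2-Aa stood at 1677 against 263 CPM and Cd74 (the class II invariant chain) at 3065 against 385 CPM. Summed over cells, H2-Aa ran the same way in each library, with 1442 against 232, 663 against 306, 2156 against 202 and 2933 against 443 CPM. The 2933 CPM came from 4 cells and largely from 1 of them, which held 171 H2-Aa UMIs. No direction of H2-Aa is therefore read in the library labelled CD45+ Tom-. Lyve1 did not keep one direction, at 321 against 748, 17.7 against 363, 813 against 760.3 and 553 against 530.3 CPM. Members with low Fn1 were 32.1% (26 of 81, 22.1 to 43.4), 23.5% (4 of 17, 6.81 to 49.9), 31.4% (16 of 51, 19.1 to 45.9) and 18.2% (4 of 22, 5.19 to 40.3) of the libraries, and all of these intervals overlapped.

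Correlations across the 171 cells, on log values centred within each library, gave the same picture and are a description, since cells of 1 library share their depth and free RNA. Fn1 and Arg1 had r = 0.73, the highest for Fn1 among 5836 genes found in at least 40 members. Fn1 was lowest with Selenop (selenoprotein P) at -0.62, Mrc1 at -0.56 and Clec10a at -0.52. Lyve1 was most like Ltc4s (leukotriene C4 synthase) at 0.70, Cbr2 at 0.64, Fcna at 0.59 and F13a1 at 0.56. Fcna was most like F13a1 at 0.60, Lyve1, Ednrb at 0.58 and Wfdc17 at 0.58. Marco was most like Saa3 at 0.48, Sod2 (mitochondrial superoxide dismutase) at 0.42 and Cd5l at 0.40.

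**Figure D3:**
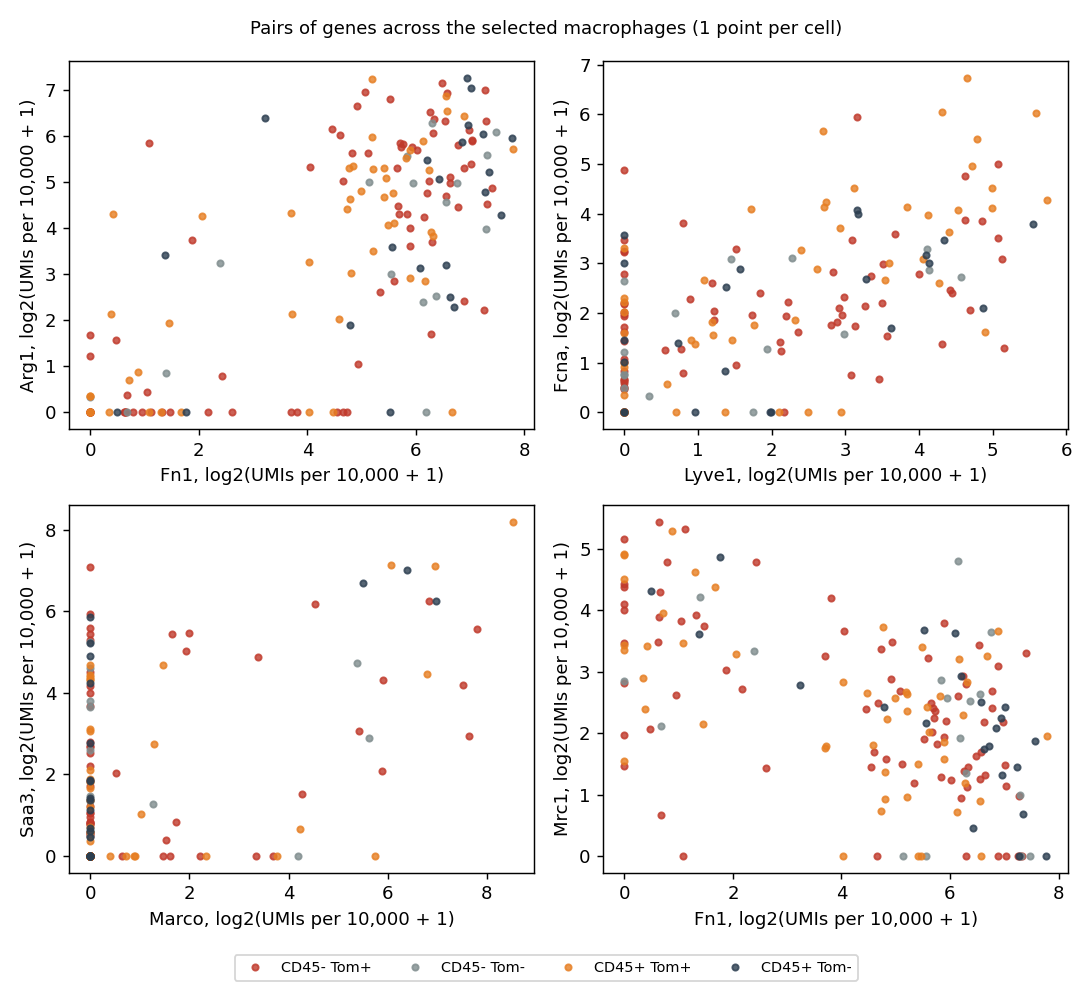
Each point is 1 of the 171 Vsig4 macrophages, coloured by library, on axes of log2(UMIs per 10,000 + 1). Cells high in Fn1 are high in Arg1 (r = 0.73) and low in Mrc1 (r = -0.56), Lyve1 and Fcna vary together (r = 0.59), and most cells have no Marco UMI.

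Cells with a Marco UMI had a lower summed level of H2-Aa than the others, though Marco UMIs counted towards selection. In both Tom+ libraries, which held 22 and 15 such cells, H2-Aa stood at 84.0 and 79.6 CPM in cells with a Marco UMI and at 904 and 1411 CPM in cells without one. Saa3 ran the other way, at 1753 and 2847 against 698 and 266 CPM. Cd5l, a secreted scavenger protein of resident macrophages, stood at 584 and 265 against 170.0 and 141 CPM. The Tom- libraries held 4 and 3 cells with Marco, with H2-Aa at 109 and 23.4 CPM against 541 and 1013 CPM in the others. The level of 1013 CPM rested largely on 1 cell with 171 H2-Aa UMIs, and 1 cell held 300 of those behind the 1411 CPM. Across cells, Marco was least like Cd83 at -0.27 and no class II gene was among its listed lowest. Vsig4 was least like Cd74 at -0.41.

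The main contrast was Tom+ against Tom- among these macrophages, in the pair of libraries labelled CD45- and in the pair labelled CD45+. tdTomato RNA checked the sort. It stood at 1078 CPM (1025 to 1134), 25.6 CPM (10.3 to 52.8), 1004 CPM (935 to 1077) and 11.9 CPM (3.25 to 30.6). Tom+ libraries thus lay far above Tom- libraries, by log2 5.39 (95% interval of the ratio 4.35 to 6.71) and 6.39 (5.03 to 8.27). A tdTomato UMI was found in 79 of 81 and 49 of 51 Tom+ members and in 6 of 17 and 3 of 22 Tom- members. At 2000 UMIs per cell these shares were 76.5%, 11.8%, 80.4% and 4.55%, beside 40.6%, 1.67%, 40.7% and 3.67% in the progenitors.

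Cdkn2a RNA itself was scarce. It stood at 13.5 CPM (8.11 to 21.0), 14.7 CPM (3.99 to 37.5), 10.3 CPM (4.43 to 20.2) and 0 CPM, from 19, 4, 8 and 0 UMIs in 6, 3, 2 and 0 cells. A difference was not detectable at this depth in the CD45- pair (log2 -0.12, -1.71 to 1.89). In the CD45+ pair the level of 0 has a floor of 3 UMIs, 8.96 CPM, close to the Tom+ level, so no order is read from it. Cdkn1a (p21), another inhibitor of cyclin-dependent kinases, stood at 225, 165, 183 and 146 CPM, with log2 ratios of 0.45 (-0.01 to 0.93) and 0.33 (-0.15 to 0.83).

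Of 3176 genes that averaged 50 CPM or more in the CD45- pair, 61 (1.92%) were at least 2-fold higher in Tom+ and 41 (1.29%) at least 2-fold lower. In the CD45+ pair 61 of 3173 (1.92%) were higher and 82 (2.58%) lower. These counts depended on the cells used. Without the cell richest in each gene they became 99 and 11 in the CD45- pair and 66 and 43 in the CD45+ pair, of which 45, 9, 42 and 42 were shared with the first counts. The median log2 ratio of all these genes was -0.03 and -0.10. Among 2889 genes at this level in both pairs, 118 had the same sign with both intervals away from 0 and 75 had opposite signs with both intervals away from 0. The pairs share no library, but both come from sorts of the same kind of tissue.

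**Figure D4:**
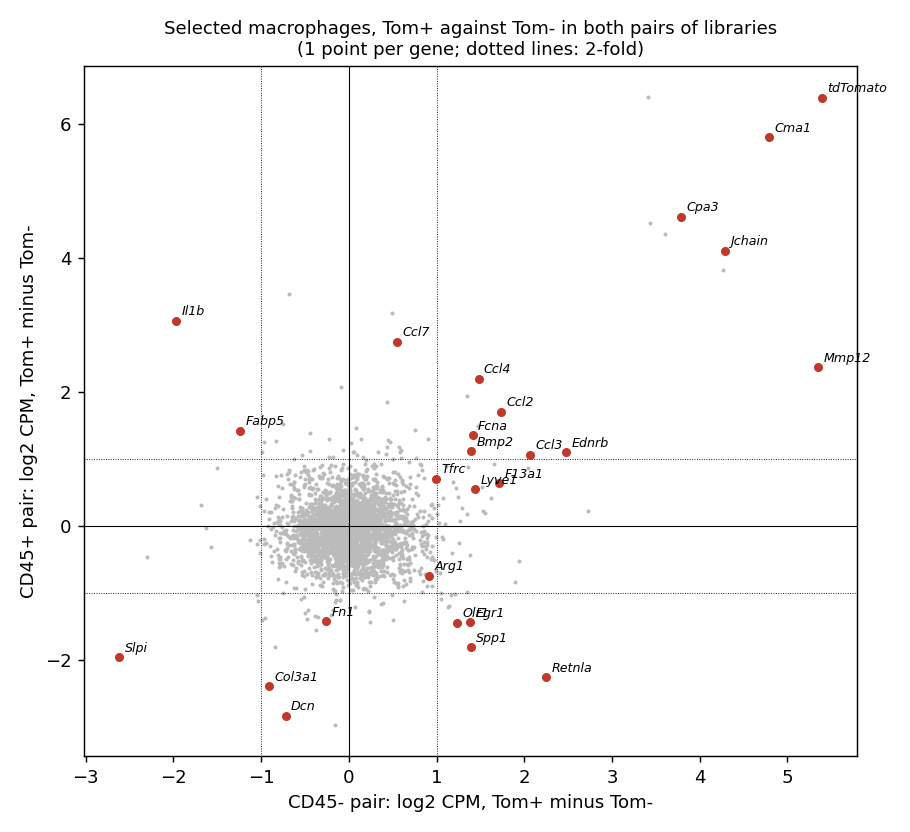
Each point is a gene that averaged 50 CPM or more in each pair, with the log2 ratio of Tom+ to Tom- in the CD45- pair (x axis) and in the CD45+ pair (y axis), and dotted lines at 2-fold. Named genes are in red, with chemokines such as Ccl2 in the upper right, Fn1 and Col3a1 in the lower left, and Retnla and Il1b with opposite signs.

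Of the chemokines, Ccl2, Ccl3, Ccl4 and Ccl7 were higher in Tom+ in both pairs, and most others on the list did not pass 2-fold. Ccl2, the main monocyte attractant, stood at 489 CPM (453 to 527), 146 CPM (105 to 199), 748 CPM (688 to 811) and 229.8 CPM (181 to 287). Both Tom+ levels lay above both Tom- levels, with log2 ratios of 1.74 (1.28 to 2.24) and 1.70 (1.36 to 2.06). Ccl3 stood at 275, 65.9, 287 and 137 CPM, with ratios of 2.06 (1.38 to 2.83) and 1.06 (0.60 to 1.56). Ccl4, a related inflammatory chemokine, stood at 388, 139, 301 and 65.7 CPM, with ratios of 1.48 (1.003 to 1.99) and 2.20 (1.57 to 2.90). Ccl7 stood at 301, 205, 622 and 92.5 CPM, with ratios of 0.55 (0.15 to 0.98) and 2.75 (2.23 to 3.32). The direction held for these chemokines in both pairs under each of the 11 alternatives run. Single cells held 47.5% and 45.5% of the Tom- UMIs of Ccl2 and 77.8% and 60.9% of those of Ccl3.

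The other macrophages of these libraries gave ratios of the same sign, at 1.23 and 1.03 for Ccl2, 0.68 and 0.75 for Ccl3, 0.43 and 0.93 for Ccl4 and 1.27 and 1.76 for Ccl7. Within the members, chemokine RNA was higher in the cells with low Fn1. For Ccl2 these stood at 816, 247, 1492 and 302 CPM, and the cells with high Fn1 at 309, 75.0, 206 and 214 CPM, so that Tom+ lay above Tom- among the cells with low Fn1 in both pairs and among those with high Fn1 in the CD45- pair. Over the whole chemokine list 4 of 15 genes at 50 CPM were 2-fold higher and 1 lower in the CD45- pair, and 5 of 14 higher and 1 lower in the CD45+ pair, with median log2 ratios of 0.24 and 0.01. Over all genes at this level 1.92% were higher and 1.29% lower in the CD45- pair, and 1.92% and 2.58% in the CD45+ pair. Ccl5 ranged from -1.67 to 2.85 and Ccl8 from -1.34 to 0.30 over the alternatives in the CD45- pair. In the CD45+ pair Ccl8 ranged from 0.82 to 4.14, and 1 cell of the library labelled CD45+ Tom+ held 298 of its UMIs. Cxcl2, a neutrophil attractant, gave -0.02 and -0.18.

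Of the perivascular group, Fcna, F13a1, Lyve1, Clec10a and Mrc1 were higher in Tom+ in both pairs and several others were not. Gas6 also lay above 0 in both pairs, from 0.12 to 0.92 (CD45-) and from 0.02 to 1.04 (CD45+) over the settings. Cd163 lay between 1.54 and 3.24 in the CD45+ pair but changed side in the CD45- pair, from -0.56 to 2.39. Fcna, given above, had log2 ratios of 1.41 (0.999 to 1.85) and 1.35 (1.09 to 1.62), and F13a1 had 1.71 (1.32 to 2.13) and 0.64 (0.39 to 0.89). Lyve1 had 1.44 (1.06 to 1.84) and 0.55 (0.31 to 0.80). Clec10a stood at 219.8, 69.6, 232 and 122 CPM, with 1.66 (0.99 to 2.41) and 0.92 (0.43 to 1.45). Mrc1 had 0.39 (0.14 to 0.65) and 0.40 (0.16 to 0.64). Folr2 gave -0.35 in the CD45- pair, and lay between -0.85 and -0.14 there under the alternatives. Cbr2 gave -0.17 (-0.52 to 0.19) and 0.05 (-0.29 to 0.38). Over the list, 4 of 12 genes at 50 CPM were 2-fold higher and none lower in the CD45- pair, and 3 of 13 higher and 1 lower (Pf4, at -1.33) in the CD45+ pair, with medians of 0.25 and 0.49, beside 1.92% higher over all genes in each pair and 1.29% and 2.58% lower. The other macrophages gave 1.40 and 1.22 for Fcna, 0.9995 and 0.51 for F13a1 and 1.08 and 1.69 for Lyve1, so these ratios were not shown to be particular to the members.

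Receptors and signals outside these lists followed. Ednrb, the endothelin receptor B, stood at 265, 47.6, 416 and 194 CPM, with log2 ratios of 2.48 (1.69 to 3.40) and 1.10 (0.71 to 1.51), although 1 cell held 66.2% of its UMIs in the library labelled CD45+ Tom-. Bmp2, a ligand of the TGF-β family, stood at 96.4, 36.6, 136 and 62.7 CPM, with 1.40 (0.47 to 2.49) and 1.12 (0.43 to 1.87). Tfrc stood at 204, 102, 185 and 113 CPM, with 0.99 (0.43 to 1.60) and 0.70 (0.18 to 1.26). Txndc5, a disulphide isomerase of the endoplasmic reticulum that plasma cells also carry, gave 1.35 and 1.93. Mmp12 (macrophage elastase) gave 5.35 and 2.37, but its Tom- level in the CD45- pair rested on 2 UMIs in 1 cell, and 75.0% of its UMIs in the library labelled CD45+ Tom- lay in 1 cell.

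The genes with the highest ratios in both pairs belonged to other lineages. Cma1, a mast cell chymase, stood at 305, 11.0, 499 and 0 CPM, and 59.3% and 58.1% of its Tom+ UMIs lay in 1 cell each. Mcpt4, Cpa3 and Tpsb2, further mast cell proteases, were named by the same measure. Jchain, which joins antibody subunits in plasma cells, stood at 1712, 87.9, 1703 and 98.5 CPM and was found in all 132 Tom+ members. The ratios of the other macrophages were 4.66 and 3.67 for Cma1 and 3.89 and 3.51 for Jchain, beside 4.79 (3.24 to 7.08) and, against the floor, at least 5.80 for Cma1 and 4.28 (3.71 to 4.93) and 4.11 (3.62 to 4.66) for Jchain in the members. The mast and plasma cell sums given above moved in the same direction, and their part in these ratios was not tested.

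Genes lower in Tom+ in both pairs were Slpi, Dcn, Col3a1, C3, Cse1l, H1f0, Ifi27l2a, Sh3bp1, Fn1, Prdx6, Fabp4 and Sgk1. Several of them did not keep this direction under every alternative. In the CD45- pair C3 reached 0.75, Dcn 0.74, Fabp4 0.37 and Col3a1 0.07, and in the CD45+ pair Fabp4 reached 0.42, Ifi27l2a 0.39 and H1f0 0.37. Fn1 stood at 4925 CPM (4810 to 5042), 5911 CPM (5626 to 6206), 3303 CPM (3177 to 3433) and 8838 CPM (8523 to 9163). The difference was small in the CD45- pair (-0.26, -0.34 to -0.18), where it came to -0.04 without the richest cell of each library, and larger in the CD45+ pair (-1.42, -1.497 to -1.34). The other macrophages gave -1.21 and -1.45. Dcn and Col3a1, matrix genes of adipose progenitors, gave -0.72 and -2.84 and -0.91 and -2.39, and 73.0% and 58.8% of their UMIs in the library labelled CD45+ Tom- lay in 1 cell. Their part as RNA of progenitors was not tested. C3, the central complement component, stood at 68.1, 132, 129.6 and 337 CPM, with -0.95 (-1.52 to -0.36) and -1.38 (-1.78 to -0.98). The other macrophages gave -1.59 and -1.83 for C3, which was also found in 95.9% to 99.9% of progenitor barcodes. In the library labelled CD45+ Tom- 1 cell held 55.8% of its UMIs, and the ratio of that pair was -0.72 without the richest cells. The part of progenitor RNA in the C3 level was not tested. Slpi (secretory leukocyte peptidase inhibitor) stood at 493, 3021, 89.8 and 349 CPM, and 93.8% of its UMIs in the library labelled CD45- Tom- lay in 1 cell. Without the richest cells its ratio in that pair turned from -2.62 to 0.78. Cse1l, a nuclear export factor, gave -1.03 (-1.82 to -0.18) and -1.11 (-1.92 to -0.30), and Prdx6, a peroxiredoxin, -0.72 (-1.26 to -0.15) and -0.84 (-1.44 to -0.23).

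**Figure D5:**
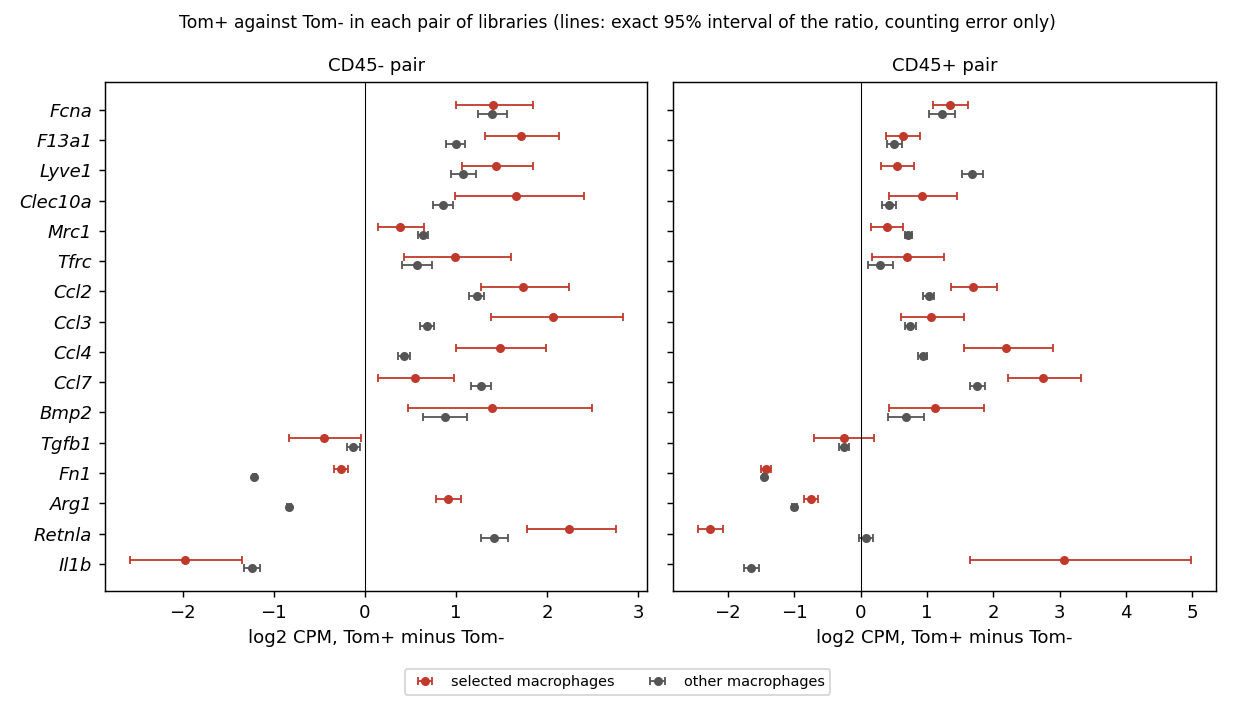
Points give the log2 ratio of Tom+ to Tom- CPM for 16 genes in the CD45- pair (left) and the CD45+ pair (right), in Vsig4 macrophages (red, the selected macrophages of the legend) and other macrophages (grey), and lines give 95% intervals of the ratio, counting error only. Fcna, Ccl2, Ccl3, Ccl4 and Ccl7 lie to the right of 0 in both panels, and Arg1, Retnla and Il1b of the Vsig4 macrophages change side.

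The study asked whether adipose tissue macrophages supply TGF-β, and whether they are of the alternatively activated (M2) kind marked by Arg1. Its evidence included inferred signalling from macrophages to Tom+ progenitors, and higher Arg1 and Tgfb1 RNA in macrophages of aged than of young mice. The contrasts here are Tom+ against Tom- and members against other macrophages, all in aged mice, so they do not test those results. Tgfb1 stood at 186, 253, 163 and 194 CPM in the members and at 247, 269, 233 and 277 CPM in the other macrophages. It was lower in Tom+ by a little in the CD45- pair (-0.44, -0.83 to -0.04) and its interval held 0 in the CD45+ pair (-0.25, -0.69 to 0.20). Of the TGF-β pathway genes at 50 CPM, none of 12 was 2-fold higher and 1 was lower in the CD45- pair, and none of 13 passed in either direction in the CD45+ pair. These counts are near the share over all genes, 1.92% higher and 1.29% or 2.58% lower. Arg1 stood at 3447, 1824, 2222 and 3725 CPM and moved in opposite directions, by 0.92 (0.79 to 1.05) and -0.75 (-0.85 to -0.64). Without the upper limits of the rule Arg1 was at -0.33 in the CD45- pair, the same side as in the CD45+ pair. Nos2, the marker of classical (M1) activation that competes for arginine, had 0 UMIs in all 4 libraries, where 3 UMIs were worth 2.13 to 10.99 CPM. Il10, an anti-inflammatory cytokine, stood at 127, 84.2, 106 and 74.6 CPM, with intervals that held 0 in both pairs (0.59, -0.04 to 1.29 and 0.51, -0.15 to 1.22). Over the alternative activation list 4 of 13 genes were 2-fold higher and none lower in the CD45- pair, and 1 of 12 higher and 1 lower in the CD45+ pair, beside 1.92% higher over all genes in each pair and 1.29% and 2.58% lower.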

How the data were processed

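Single-cell RNA libraries (10x 3' v3.1 chemistry) were made from cells of gonadal white adipose tissue that had been dissociated and sorted on CD45 and tdTomato, with 1 library per group. The whole-number UMI counts deposited by the authors came from Cell Ranger 3.0.2 on mm10 with a tdTomato row. Nothing in the labels says how many mice a library holds. No value in the tables is normalized. A barcode was kept where more than 1000 but fewer than 7000 genes were detected and mitochondrial UMIs stayed below 8%, which held for 14982 of 33567. Members were then taken by the counts given in the report, and their UMIs were summed per library and divided by the sum of all their UMIs to give CPM. Library totals were 139397501, 110410319, 64083756 and 136459745 UMIs in the order used in the report.

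Ratios of Tom+ to Tom- are log2 ratios of CPM with conditional exact 95% intervals of the counts, single levels have exact Poisson intervals and shares have Clopper-Pearson intervals. PCR, capture and the choice of animals are outside these intervals, which cover counting error only. A gene at 0 was set to 3 counts for a bound. With 1 library per group no p-value was computed, and the comparison over cells that the study made with Wilcoxon tests was not used. A gene counted as higher or lower at 2-fold where its mean was at least 50 CPM.

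Named genes were those of the gene lists, the 12 with the highest and the 12 with the lowest mean log2 ratio of Tom+ to Tom- among genes whose intervals excluded 0 on the same side in both pairs, and the 15 highest and 10 lowest of members against other macrophages by the value nearest 0 over the libraries. Genes of the rule, tdTomato, immunoglobulin, ribosomal, mitochondrial and unnamed genes were left out of the ranked part, and 1 gene that the rule named is not reported here. Members and lists were chosen with earlier results of these data known. Doublets were not removed, and Scrublet scores (scanpy 1.11.5) were used in an alternative that took out 15 members. Python 3.11.15, numpy 2.4.6, scipy 1.17.1, pandas 2.3.3 and matplotlib 3.10.9 were used. The ratio was tested on simulated data with 200 genes changed 4-fold, of which 100% were recovered in the CD45- pair (3169 genes) and in the CD45+ pair (3171 genes). These data held counting error only, and the change planted was larger than the 2-fold cut. The simulation therefore checks the calculation and does not cover levels set by single cells. Alternatives were other thresholds of the rule, other barcode filters, doublet removal, mean CPM per cell, thinning to 2000 UMIs, other CPM minimums, median-of-ratios scaling, and leaving out single cells.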

Additional observations from a re-analysis of the deposited data

Results flagged for a closer look

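For 8 genes the Tom+ to Tom- log2 ratios of the 2 pairs lay at least 2-fold on opposite sides of 0, and the difference between the pairs was not tested because each pair holds 1 library per group. Retnla stood at 660.1, 139, 444 and 2131 CPM, and its ratios of 2.25 and -2.26 differed by 4.51. Single cells held 30.1%, 50.0%, 45.4% and 42.4% of these UMIs. Il1b, the inflammatory cytokine, had ratios of -1.97 and 3.07, a difference of -5.04. Spp1 (osteopontin) differed by 3.21, Egr1 (an immediate early transcription factor) by 2.82, Olr1 (a receptor for oxidised lipoprotein) by 2.69 and Fabp5 (a fatty acid binding protein) by -2.67. Gdf15, a stress-induced cytokine, differed by 2.35 and Cx3cr1, the fractalkine receptor, by 2.06. Without the cell richest in each gene, 7 of the 8 genes kept opposite signs, and Gdf15 came to 0.01 in the CD45+ pair. Only Il1b, Olr1, Retnla and Spp1 then stayed past 2-fold in both pairs. Fabp5 came to -0.32 in the CD45- pair, and Egr1 to -0.93 and Cx3cr1 to -0.80 in the CD45+ pair.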

How the results depend on the processing

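With 17 and 22 members in the Tom- libraries, counts of genes moved with the cells used. Without the rule's upper limits the shares were 3.57%, 0.991%, 3.89% and 1.47%, and 38 genes were higher in the CD45- pair. A looser barcode filter gave a share of 1.54% for the library labelled CD45- Tom+, 34 higher and 23 lower genes in the CD45- pair and 38 higher in the CD45+ pair. In the CD45- pair the lower genes were 65 without doublets and 88 by mean CPM per cell. Thinning gave 345 and 514 genes in the CD45- pair and 282 and 444 in the CD45+ pair. The tdTomato ratios of this draw were, against the floor, at least 3.64 and 4.16. A minimum of 10 CPM gave 506, 450, 557 and 651 genes, and no minimum 793, 728, 939 and 841. The next alternatives were chosen after seeing the data. Without the cell richest in each gene there were 99 higher and 11 lower genes in the CD45- pair, 43 lower in the CD45+ pair and 25 lower in members against other macrophages. Without the members that carried other lineages there were 66 lower genes in the CD45- pair.

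Among ratios past 2-fold, directions turned in 15 cases, and the cause was not tested. Ratios under 2-fold turned too. In the CD45- pair Arg1 was -0.33 without upper limits, C3 0.75 and Dcn 0.74 at 2 UMIs of the rule genes, and Fabp4 0.37 and Col3a1 0.07 after thinning. In the CD45+ pair Fabp4 was 0.42 with the looser filter and Ifi27l2a 0.39 at 5 UMIs. Without upper limits Il1b was 0.20, Olr1 -0.57 and Spp1 -0.97 in the CD45- pair, and Cd5l -0.35, Gdf15 1.10 and Il1b -0.10 in the CD45+ pair. At 5 UMIs of the rule genes Gdf15 was 0.15 in the CD45+ pair. In the CD45- pair Ccl5 was 2.85 and Slpi 0.99 without doublets, 1.28 and 0.78 without the richest cell, and Ccl5 was 1.12 without members that carried other lineages. In the CD45+ pair Gdf15 was 1.11 and H1f0 0.37 after thinning, and Gdf15 was 0.015 without the richest cell. Leaving out members with 10 or more immunoglobulin UMIs was not run as it left 1 of 171 cells. Leaving out shared barcodes changed nothing, as 0 members were shared. No paired analysis was possible because each group holds 1 library.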

Other observations

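Dividing cells were found among the members. A cell counted as cycling with UMIs of at least 5 of 9 cell cycle genes, which held for 4 of 81 (4.94%), 0 of 17 (an exact upper limit of 19.5%), 5 of 51 (9.80%) and 3 of 22 (13.6%) members. The other macrophages of the same libraries gave 7.73%, 5.01%, 8.31% and 7.49%.

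The mitochondrially encoded genes had median log2 ratios of Tom+ to Tom- of -0.30 and -0.31, and 9 of the 12 at 50 CPM lay below 0 by their intervals in each pair. mt-Co1, a subunit of cytochrome oxidase, stood at 9226, 12575.4, 8611 and 10924.9 CPM. None of the 7 class II genes passed 2-fold in either pair, with medians of 0.37 and 0.47. This is near the share over all genes, 1.92% higher in each pair and 1.29% and 2.58% lower. The ratios of H2-Aa, H2-Ab1, H2-Eb1 and Cd74 changed side among the alternatives in both pairs. Psap (prosaposin, the precursor of lysosomal lipid-binding proteins) stood at 7195, 5339, 7550.0 and 4668 CPM, with ratios of 0.43 and 0.69.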
